A study of Mus musculus with 4 samples.

Results

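The genes of mitosis and cytokinesis were followed in heart RNA of growing mice. The list named 43 genes of mitotic entry, chromosome segregation, the spindle and cell cleavage, and was joined to the arrays by gene symbol. Of these, 41 had a probe set among the 19505 named genes, 1 probe set each, and expression of Ccnb1 and Foxm1 is not analysed here. All were read on 4 mouse Clariom S arrays, which carry 1 colour, and are given as log2 expression values. A reading that does not exceed the top 1 of the 23 background probe sets of its array (5.80, 5.77, 6.05 and 5.82 on the 4 arrays in the order given next) is called at background.

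The 4 arrays held hearts of outbred ICR (Jcl:ICR) mice, 1 array for each group: PBS at day 7, Tbx6 at day 7, PBS at day 30 and Tbx6 at day 30. Newborns had received 5 μl under the skin of the back at postnatal day 1, either of a viral vector for Tbx6, a T-box transcription factor of the early embryo, or of phosphate-buffered saline (PBS), and days are counted from the injection. The control held no vector, so gene and vector cannot be told apart. The sources used here do not give the vector's promoter, the sex of the pups or how many hearts went into an array. The study asked how Tbx6 acts on the heart, and the days also set a growing heart beside a maturing one. The probe set of Tbx6 itself was at background on all 4 arrays, at 3.70 for PBS and 4.14 for Tbx6 at day 7 and 3.57 and 3.66 at day 30, so it does not check the labels, and PBS and Tbx6 stand throughout for the arrays labelled so.

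Mitosis is driven by cyclin-dependent kinase 1, which is switched on by cyclins A2 and B and switched off when the anaphase-promoting complex marks the cyclins for destruction. Between these steps kinetochores attach chromosomes to the spindle, a checkpoint holds anaphase back until all are attached, and a ring of actin and myosin then cleaves the cell. In the mouse heart most muscle cells leave the cell cycle soon after birth, many with a last division of the nucleus that is not followed by cleavage, while endothelial cells and fibroblasts go on dividing for longer. Many of these genes are switched off in resting cells by the DREAM and MuvB complexes, which bind a short promoter element, the cell cycle genes homology region (CHR), often beside CCAAT boxes that bind NF-Y.

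Mitotic genes were lower in the heart at day 30 than at day 7, and which of them still gave a signal at day 30 was a short list. At day 7, 20 of the 41 members were above background on both arrays, 5 on 1 array and 16 on none. At day 30 only Top2a, Cenpa, Cenpe and Kif23 were above background on both arrays, Mki67 and Ccnb2 were above it after Tbx6 alone, and the other 35 on neither. Between injections the members did not move together. The words rose and fell stand for genes past an additive limma test of day and injection on all 19505 genes (Benjamini-Hochberg adjusted p below 0.05). This test has 1 array per group and 1 residual degree of freedom, so its standard errors (SE) rest on a variance borrowed mostly from other genes. An adjusted p beside a fall of at least some size belongs to the fitted difference on deposited values, not to that least size. Those with readings raised to background or with an array left out are named as such. Once raised, genes at background on every array share the same values, so p-values with raised readings rest on a distorted prior.

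**Figure D1:**
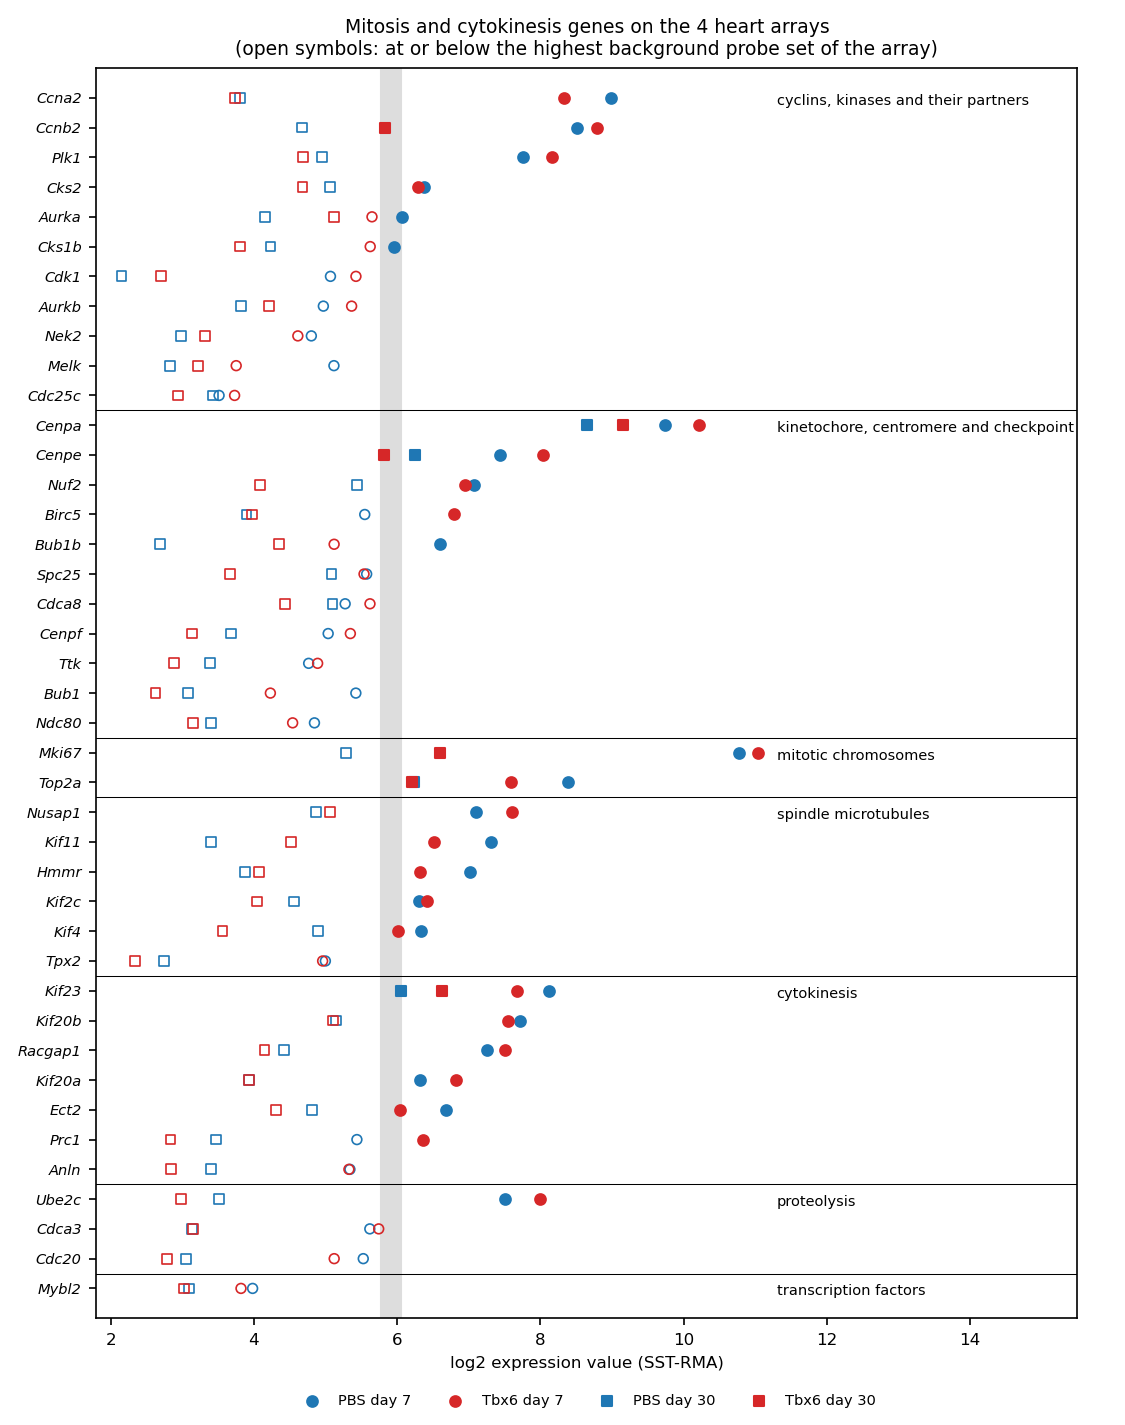
Log2 expression value of each of the 41 measured members (rows, grouped by role) on the 4 arrays; circles are day 7, squares day 30, blue PBS and red Tbx6, open symbols do not exceed the top background probe set of their array, and the grey band spans these background values, 5.77 to 6.05. For all 41 members both squares lie left of both circles, and filled squares are left for Cenpa, Cenpe, Mki67, Top2a, Kif23 and Ccnb2.

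Since the measured members moved together with day, the promoters of the listed genes were read, as a description without a test. RefSeq promoters (GRCm38.p6), 250 bases before to 50 bases after the start, were given for 37 of the 43 genes; the others are Aurkb, Ccna2, Cdc25c, Foxm1, Kif20a and Tpx2. The 37 include Ccnb1, whose expression was not read. The CHR was searched as TTTGAA or TTCGAA and the CCAAT box as CCAAT, on both strands, so that TTCAAA and ATTGG are also matches. A CHR was found in 28 of the 37 promoters (75.7%) and in 19.6% of the 15691 promoters of named genes. CCAAT was found in 28 (75.7%) against 42.2%, at least 2 times in 21 (56.8%) against 14.4%, and both motifs stood in 24 (64.9%) against 8.09%. From 100 bases before the start on, a window added after the data had been seen, 27 of the 37 (73.0%) held a CHR, against 8.21%. The list was made of cell cycle genes, for which these elements are known, and a match of letters is not a site. Of the 250 bases before the start, 6 promoters are shown 5′ to 3′ with the matches in capitals, 5 in which both motifs occur there and Nuf2, in which neither was found.
Mki67, chr7:135716380-135716629, minus strand: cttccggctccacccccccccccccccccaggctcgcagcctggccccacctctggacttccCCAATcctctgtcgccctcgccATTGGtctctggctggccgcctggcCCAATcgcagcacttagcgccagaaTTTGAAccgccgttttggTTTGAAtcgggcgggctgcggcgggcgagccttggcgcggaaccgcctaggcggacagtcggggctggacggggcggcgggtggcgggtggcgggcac
Top2a, chr11:99024190-99024439, minus strand: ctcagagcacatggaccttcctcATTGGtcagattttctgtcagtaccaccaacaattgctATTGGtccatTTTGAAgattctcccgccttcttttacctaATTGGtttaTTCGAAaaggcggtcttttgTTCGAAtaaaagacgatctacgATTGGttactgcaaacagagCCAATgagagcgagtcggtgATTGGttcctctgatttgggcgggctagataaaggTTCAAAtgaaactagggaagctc
Ccnb2, chr9:70421555-70421804, minus strand: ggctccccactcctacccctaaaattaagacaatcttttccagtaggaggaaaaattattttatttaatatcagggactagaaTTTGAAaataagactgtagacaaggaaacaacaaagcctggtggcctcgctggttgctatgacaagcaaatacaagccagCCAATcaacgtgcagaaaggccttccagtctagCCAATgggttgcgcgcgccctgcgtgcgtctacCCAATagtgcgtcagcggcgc
Kif11, chr19:37376132-37376381, plus strand: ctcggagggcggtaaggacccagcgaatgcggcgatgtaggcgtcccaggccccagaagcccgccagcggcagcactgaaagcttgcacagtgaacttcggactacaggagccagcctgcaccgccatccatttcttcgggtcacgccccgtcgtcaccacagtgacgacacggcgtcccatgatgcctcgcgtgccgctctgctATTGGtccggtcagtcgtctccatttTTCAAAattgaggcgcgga
Ube2c, chr2:164769679-164769928, plus strand: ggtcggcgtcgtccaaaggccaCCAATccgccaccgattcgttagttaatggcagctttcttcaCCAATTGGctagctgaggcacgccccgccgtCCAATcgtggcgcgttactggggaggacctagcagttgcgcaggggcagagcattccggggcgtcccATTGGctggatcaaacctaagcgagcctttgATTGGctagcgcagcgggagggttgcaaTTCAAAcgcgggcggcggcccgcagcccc
Nuf2, chr1:169531465-169531714, minus strand: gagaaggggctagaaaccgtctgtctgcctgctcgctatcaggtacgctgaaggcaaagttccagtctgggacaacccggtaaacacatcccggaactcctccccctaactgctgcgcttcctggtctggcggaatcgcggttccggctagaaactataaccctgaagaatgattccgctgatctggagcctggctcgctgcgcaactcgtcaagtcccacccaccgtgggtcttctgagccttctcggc
In Mki67 the matches of the CHR began 116 and 98 bases before the start, just downstream of CCAAT boxes at 188, 166 and 141. In Ccnb2 the CCAAT boxes began 87, 54 and 21 bases before the start and another CHR lay 5 bases after the start, beyond the printed stretch. Top2a held 4 matches of the CHR and 6 of CCAAT, the nearest CHR 23 bases before the start. In Ube2c the CHR began 29 bases before the start, and a pair of its 6 CCAAT matches overlap head to head. In Kif11 the CHR began 19 and the CCAAT box 45 bases before the start.

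The first comparison set day 30 against day 7. Of the 41 members, 35 had an adjusted p below 0.05 by limma with a lower value at day 30 and 0 with a higher one, where 5.33% of all genes were lower and 6.12% higher. The 41 fitted differences were all negative, with a median of -2.06 on the log2 scale against -0.03 over all genes. Both readings of day 30 lay below both of day 7 in 41 of 41 members and in 28.4% of all genes. That median and this count include the 16 members at background on all arrays. With every reading at background raised to it, 16 of the 41 were past the test with a lower value and 0 with a higher one, against 9.13% and 10.1% of all genes. The p-values of that fit rest on a distorted prior. By injection, the median difference over the 41 members as deposited was -1.97 in the pair of PBS arrays and -2.22 in the pair of Tbx6 arrays. In bulk heart RNA, fewer dividing cells and less mitotic RNA per dividing cell cannot be told apart.

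**Figure D2:**
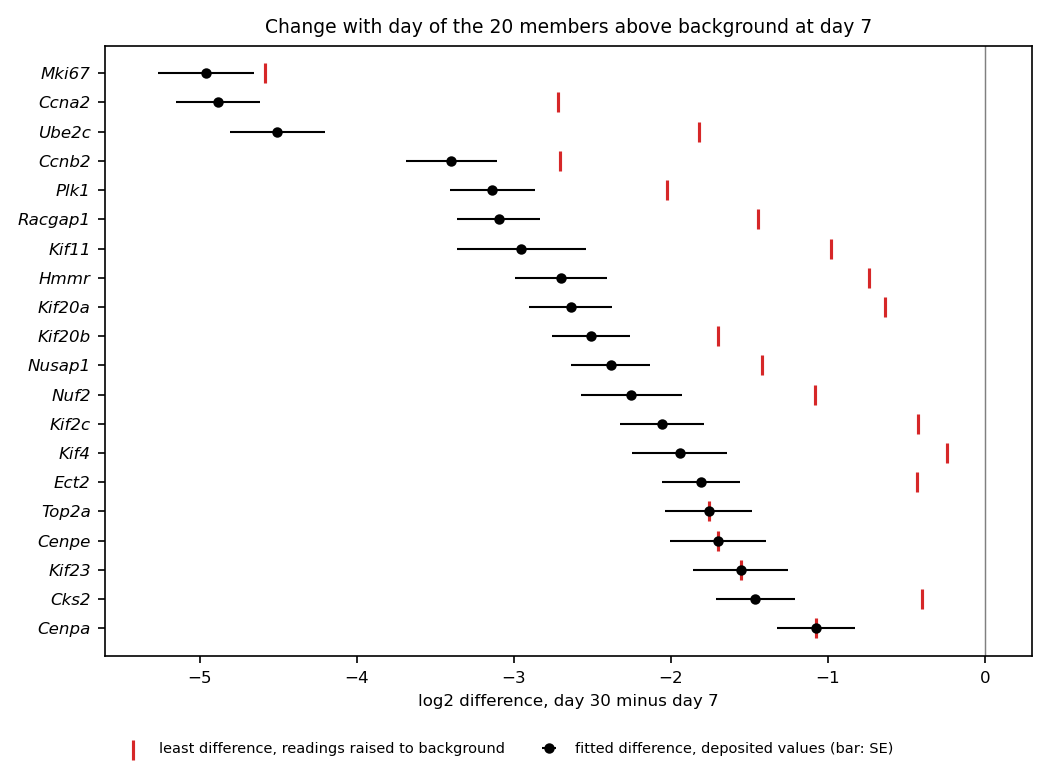
Log2 difference, day 30 minus day 7, of the 20 members above background on both arrays of day 7: black points are the limma estimate on deposited values with its SE, red bars the least difference left after raising readings at background to the background value. Estimates run from -4.96 (Mki67) to -1.08 (Cenpa), and the red bar meets the point for Top2a, Cenpe, Kif23 and Cenpa, whose readings were all above background.

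The cyclins that carry cells into and through mitosis fell, with others of the cyclins, kinases and their partners, of which 8 of 11 were past the test and 5 were at background throughout. By the same test 5.33% of all genes were lower. Ccna2, which encodes cyclin A2, read 8.98 on the PBS and 8.33 on the Tbx6 array of day 7, and 3.80 and 3.74 at day 30. Both arrays of day 30 were at background, and Ccna2 fell by at least 2.72 (adjusted p of 4.57e-05 by limma). Ccnb2, which encodes cyclin B2, read 8.51 and 8.79 at day 7 and 4.67 and 5.84 at day 30, of which the last was just above background. It fell by at least 2.70 (adjusted p of 0.000285). Plk1, the polo-like kinase of mitotic entry and spindle building, read 7.75 and 8.16 at day 7 and 4.95 and 4.69 at day 30, at background. It fell by at least 2.02 (adjusted p of 0.000319). Cks2, a small partner of cyclin-dependent kinases, was near background already at day 7 (6.38 and 6.29) and read 5.07 and 4.68 at day 30. Its fitted difference was -1.46 (SE 0.25, adjusted p of 0.00796), of which at least 0.40 was measured, and the call was lost without the Tbx6 array of day 30 (adjusted p of 0.0699) and with readings raised to background (0.252).

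The kinases and partners that stayed near or under background carry less weight. Cks1b, the sister gene of Cks2, was above background after PBS at day 7 alone, at 5.95, against 5.62 after Tbx6, and read 4.23 and 3.80 at day 30. Aurka, the centrosome kinase, likewise read 6.06 and 5.65 at day 7 and 4.16 and 5.12 at day 30, and did not pass the test (adjusted p of 0.0540). Cdk1 itself was at background throughout, at 5.07 and 5.43 at day 7 and 2.15 and 2.70 at day 30, so the master kinase of mitosis gave no measured level here. Aurkb, the kinase of the chromosomal passenger complex, Nek2, a centrosome kinase, Melk and Cdc25c, the phosphatase that activates Cdk1, were also at background on all arrays, and of these Melk (adjusted p of 0.0510) and Cdc25c (0.388) did not pass.

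Both genes of mitotic chromosomes fell. Mki67, which coats mitotic chromosomes and is the common marker of dividing cells, read 10.78 on the PBS and 11.04 on the Tbx6 array of day 7. At day 30 it was at background after PBS, at 5.29, and above it after Tbx6, at 6.60. It fell by at least 4.58 (adjusted p of 7.47e-05). Top2a, the topoisomerase that untangles sister chromosomes, read 8.38 and 7.59 at day 7 and 6.24 and 6.21 at day 30. All 4 of its readings were above background, and the groups of days did not overlap. Its difference was -1.76 (SE 0.28, adjusted p of 0.00514), and the call was lost without the PBS array of day 30 (adjusted p of 0.0570) or the Tbx6 array of day 30 (0.0670).

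Kinetochore, centromere and checkpoint genes included 3 above background on both arrays of day 7. Cenpa, the histone H3 variant that marks centromeres, read 9.74 on the PBS and 10.22 on the Tbx6 array of day 7, and 8.66 and 9.15 at day 30. All 4 readings were above background, and those of day 30 lay below those of day 7. The difference was -1.08 (SE 0.25, adjusted p of 0.0264). Its call was lost without any 1 of the 4 arrays (adjusted p of 0.0549 to 0.218). Cenpe, the kinesin that moves chromosomes to the spindle equator, read 7.43 and 8.04 at day 7 and 6.26 and 5.82 at day 30. Its difference was -1.70 (SE 0.31, adjusted p of 0.00917, and 0.0771 without the Tbx6 array of day 30). Nuf2, of the NDC80 complex that grips microtubules, read 7.08 and 6.95 at day 7 and 5.44 and 4.09 at day 30. It fell by at least 1.08 (adjusted p of 0.00315).

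Beside Nuf2, its partners in the same complex were at background on every array: Ndc80 read 4.85 and 4.54 at day 7, and Spc25 read 5.57 and 5.54. Birc5, which encodes survivin of the passenger complex, was above background after Tbx6 at day 7 alone, at 6.79, against 5.55 after PBS, and read 3.90 and 3.97 at day 30. The checkpoint kinase gene Bub1b was above it after PBS at day 7 alone, at 6.60, against 5.12 after Tbx6. The adjusted p was 0.00295 for Birc5 and 0.0368 for Bub1b, and either call was lost without the PBS array of day 30 (0.0652 and 0.199), that of Birc5 also without the Tbx6 array of day 30 (0.0665) and that of Bub1b without the PBS array of day 7 (0.163). With readings raised to background neither passed (adjusted p of 0.346 and 0.543), and the differences were then -0.36 and -0.25. These are not least differences, since a reading of day 7 was raised as well. Bub1 and Ttk, the other checkpoint kinases, Cenpf, a kinetochore protein, and Cdca8, the borealin of the passenger complex, were at background throughout. In all 9 of the 11 genes of this group were past the test, with 6 of the 11 at background throughout, and Cdca8 (adjusted p of 0.203) and Spc25 (0.0607) were not. By the same test 5.33% of all genes were lower.

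All 6 spindle genes were past the test, by which 5.33% of all genes were lower. Nusap1, which bundles spindle microtubules, read 7.10 on the PBS and 7.61 on the Tbx6 array of day 7, and 4.87 and 5.07 at day 30. It fell by at least 1.42 (adjusted p of 0.000753). Kif11, the kinesin that pushes spindle poles apart, read 7.31 and 6.51 at day 7 and 3.40 and 4.52 at day 30, and fell by at least 0.98 (adjusted p of 0.00269). Hmmr, a spindle pole protein, read 7.02 and 6.32 at day 7 and 3.88 and 4.07 at day 30, and fell by at least 0.74 (adjusted p of 0.000815). For these 3 genes every reading of day 30 was at background.

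Kif2c, a kinesin that takes microtubules apart at centromeres, and Kif4, a chromosome-bound kinesin, were closer to background at day 7. Kif2c read 6.30 and 6.41 and then 4.56 and 4.05, with a measured fall of at least 0.42. Kif4 read 6.33 and 6.02 and then 4.89 and 3.56, with at least 0.24. With readings raised to background these 2 were no longer past the test (adjusted p of 0.204 and 0.543), and the call for Kif4 was lost without the PBS array of day 7 (0.0814) or the Tbx6 array of day 30 (0.0787). Tpx2, which activates Aurora A on the spindle, was at background on all 4 arrays.

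Cytokinesis genes were all 7 past the test, by which 5.33% of all genes were lower. Of the 7, 5 were above background on both arrays of day 7 and Anln on no array. Kif23, the motor of the centralspindlin complex at the cleavage plane, read 8.12 on the PBS and 7.67 on the Tbx6 array of day 7 and stayed above background at day 30, at 6.06 and 6.62. Its difference was -1.55 (SE 0.30, adjusted p of 0.0130), lost without the PBS array of day 7 (0.0593) or the PBS array of day 30 (0.0859). Racgap1, the other centralspindlin subunit, read 7.25 and 7.51 at day 7 and 4.42 and 4.15 at day 30. Unlike Kif23 it was at background at day 30, and it fell by at least 1.45 (adjusted p of 0.000281). Ect2, the exchange factor that centralspindlin brings to the cortex to activate RhoA, read 6.68 and 6.04 and then 4.81 and 4.30. Its fall of at least 0.43 was lost with readings raised to background (adjusted p of 0.192) and without the Tbx6 array of day 30 (0.0725).

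The kinesins Kif20a and Kif20b of the central spindle fell too. Kif20b read 7.71 and 7.55 at day 7 and 5.14 and 5.10 at day 30, and fell by at least 1.70 (adjusted p of 0.000569). Kif20a read 6.32 and 6.82 at day 7 and 3.93 and 3.93 at day 30. It fell by at least 0.63 (adjusted p of 0.000571, and 0.0199 with readings raised to background). All day 30 readings of the pair were at background. Prc1, which crosslinks the antiparallel microtubules of the central spindle, was above background after Tbx6 at day 7 alone, at 6.36, against 5.44 after PBS. It passed the test (adjusted p of 0.00214 by limma), but not with readings raised to background (0.554). Anln, the anillin scaffold of the contractile ring, was at background throughout, at 5.34 and 5.33 at day 7.

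Of the genes of mitotic proteolysis, Ube2c, the ubiquitin-conjugating enzyme that serves the anaphase-promoting complex, read 7.51 on the PBS and 8.0 on the Tbx6 array of day 7, and 3.51 and 2.98 at day 30. It fell by at least 1.82 (adjusted p of 0.000112). Cdc20, the activator of that complex, and Cdca3, an adaptor in the destruction of Wee1, were at background on all arrays. Their values were nonetheless lower at day 30, at 3.05 and 2.78 for Cdc20 against 5.53 and 5.12 at day 7. Mybl2, the transcription factor that joins MuvB when mitotic genes are switched on, read 3.98 and 3.82 at day 7 and 3.09 and 3.02 at day 30, at background, and did not pass the test (adjusted p of 0.0652).

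The 16 members at background on all arrays had values of 3.51 to 5.74 at day 7 and 2.15 to 5.10 at day 30, and 11 of them passed the test on the values as deposited. Since all of these lay within the range of probe sets made to measure no gene (2.06 to 6.05), their differences are given as deposited values and not as a measured fall. For Aurka and Cks1b, whose reading after PBS at day 7 was barely above background, no least difference could be given either.

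The second comparison set Tbx6 against PBS, with 1 array on each side and therefore no test within a day. At day 7 the 20 members above background on both arrays were divided evenly, 10 higher and 10 lower after Tbx6, with a median difference of 0.01 on the log2 scale against -0.03 over the 8557 such genes. Of the 20, 1 was at least 1.5-fold higher, where 6.45% of such genes were, and 5 were at least 1.5-fold lower, where 7.75% were. The lower ones were Kif11 (-0.80), Top2a (-0.79), Hmmr (-0.70), Ccna2 (-0.65) and Ect2 (-0.64), and the higher one was Cenpe (0.61). Higher by less than 1.5-fold were Nusap1 (0.51), Kif20a (0.50), Ube2c (0.49), Cenpa (0.48) and Plk1 (0.41). Mki67 differed by 0.26, Racgap1 by 0.26 and Ccnb2 by 0.28.

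With 1 reading at background, Birc5 was at least 0.996 higher and Prc1 at least 0.56 higher after Tbx6 at day 7, while Bub1b was lower by at least 0.83, as the bound of -0.83. Over all 41 members on the values as deposited, 3 were at least 1.5-fold higher (8.03% of all genes) and 8 lower (7.86%). With readings raised to background the counts were 2 and 6, against 3.08% and 3.68% of all genes. Genes that act together lay on both sides: of the centralspindlin pathway Racgap1 was higher and Kif23 and Ect2 were lower, and of the cyclins Ccnb2 was higher and Ccna2 lower.

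**Figure D3:**
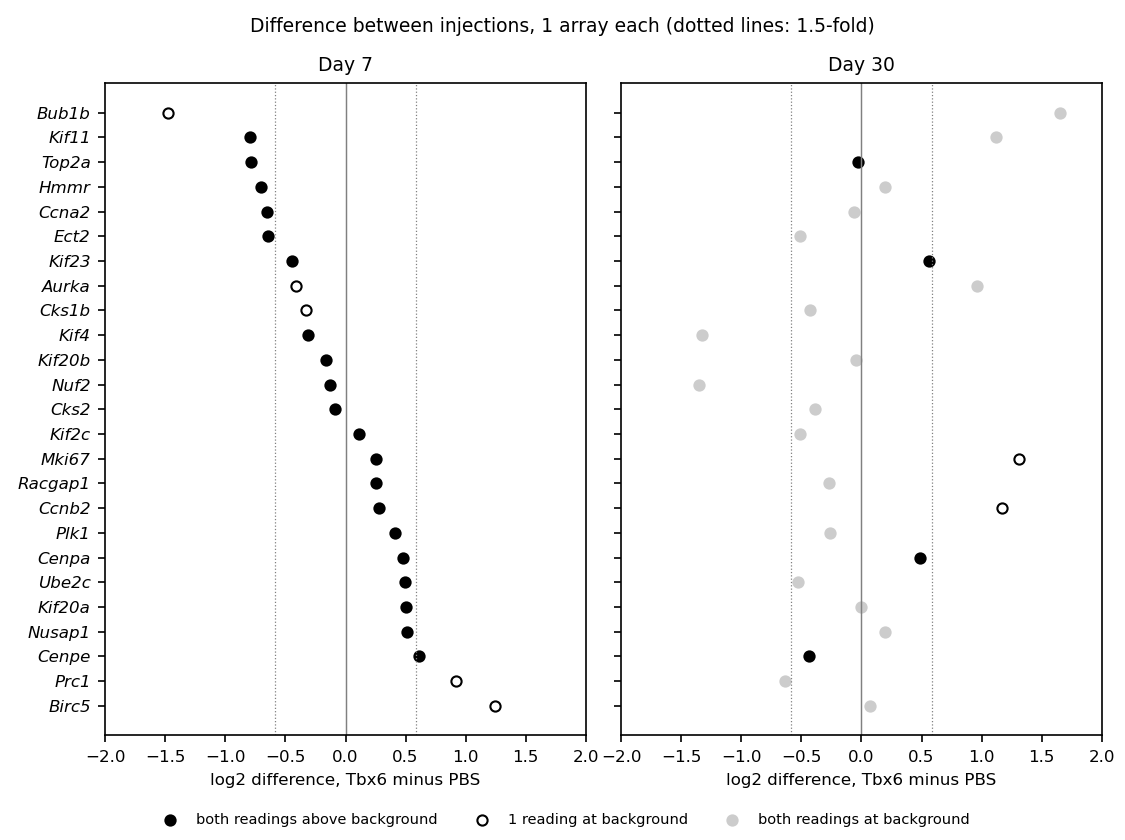
Log2 difference, Tbx6 minus PBS, at day 7 (left) and day 30 (right) for the 25 members above background on at least 1 array of day 7, in the order of the day 7 difference; black points have both readings above background, open points 1 and grey points none, and dotted lines mark 1.5-fold. At day 7, 10 black points lie on each side of 0, from -0.80 to 0.61, and at day 30 only 4 black points remain, from -0.43 to 0.56.

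At day 30 the difference could be measured for 4 members. Kif23 was higher after Tbx6 by 0.56, Cenpa was higher by 0.49, Top2a differed by -0.03 and Cenpe by -0.43. Mki67 was at background after PBS and at least 0.55 higher after Tbx6, and for Ccnb2, whose Tbx6 reading of 5.84 lay below the background value of the PBS array, no bound was left. None of the 4 measured differences reached 1.5-fold. On the values as deposited 5 members were at least 1.5-fold higher (7.98% of all genes) and 5 lower (6.98%), of which both readings were at background in 3 and 5. With readings raised to background both counts were 0, against 2.73% and 2.41% of all genes.

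Over both days Cenpa was the 1 member measured on all arrays whose difference between injections had like size each time, 0.48 at day 7 and 0.49 at day 30. By limma's additive model 0 of the 41 members passed the adjusted threshold for injection, as did 0% of all genes, and the lowest adjusted p among the members was 1. At an unadjusted p under 0.05 there were 6 members, 2 higher after Tbx6 and 4 lower, where 869 of the 19505 genes (4.46%) were below it. The higher ones were Mki67 (0.78, SE 0.31) and Ccnb2 (0.72, SE 0.29), and each of these estimates rests on a PBS reading at background at day 30. The lower ones were Bub1, which was at background throughout, and Kif4, Ect2 and Nuf2, whose day 30 readings were all at background. Cenpa had an injection estimate of 0.48 (SE 0.25, unadjusted p of 0.0841).

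The fall with day did not extend evenly to other genes of mitosis. Of 138 further genes in 8 lists, 42 were lower and 5 higher at day 30 by the same test (5.33% and 6.12% of all genes). Of the 42, 15 were at background on all arrays, 5 had no fall left with readings raised to background, and 22 had a difference below 0 with readings so raised. Of these 22, 16 were past the test with readings raised to background. For Mastl, Kif15 and Stil among the 22, a reading of day 7 was raised as well, so theirs is not a least difference. Of the 17 genes in the list of the anaphase-promoting complex, 16 were above background on all 4 arrays, 1 fell, 0 rose and the median was -0.12. The one that fell was Fbxo5, the early mitotic inhibitor of the complex, which was at 6.88 and 7.20 at day 7 and at background at day 30, a fall of at least 1.11. Anapc15 (-0.77, adjusted p of 0.122) and Ube2s (-0.63, adjusted p of 0.152), which extends ubiquitin chains, did not pass the test. Ube2c of the same reaction fell by at least 1.82.

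**Figure D4:**
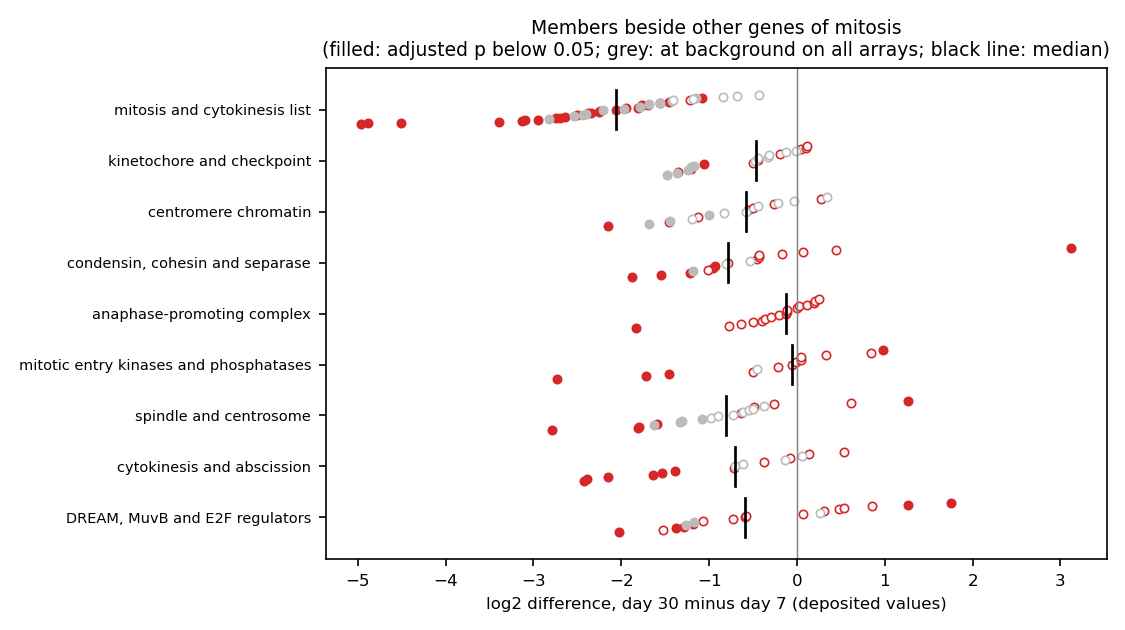
Log2 difference, day 30 minus day 7 on deposited values, of each member of the mitosis and cytokinesis list (top row) and of 138 other genes in 8 lists; filled points have an adjusted p below 0.05 by limma, grey points were at background on all arrays, and black lines are medians. The median of the members is -2.06, that of the anaphase-promoting complex -0.12, and the point farthest right is Pttg1 at 3.13.

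Of the other cytokinesis genes 6 of 15 were lower and 0 higher, of which Diaph3 and Iqgap3 had no fall left with readings raised to background. Septin9, above background on all arrays, fell by 1.39 (adjusted p of 0.00997 by limma). Depdc1a fell by at least 2.09, Shcbp1, a central spindle protein, by at least 0.71, and Cep55, which recruits the abscission machinery to the midbody, by at least 0.39 (adjusted p of 0.283 with readings raised to background). With raised readings Cep55 differed by 0.10 in the pair of PBS arrays and by -0.87 in the pair of Tbx6 arrays. Of the spindle and centrosome list 8 of 20 were lower and 1 was higher, but 11 were at background on all arrays, among them 4 of the 8. Ckap2, a spindle protein, fell by at least 2.10. Dlgap5 fell by at least 0.29, lost with readings raised to background (adjusted p of 0.543) and without the Tbx6 array of day 30 (0.0722). Nedd1, which brings gamma-tubulin to centrosomes, rose from 6.77 and 7.00 to 8.27 and 8.02, a difference of 1.26 (adjusted p of 0.0170, and 0.0601 to 0.0922 without PBS at day 7, PBS at day 30 or Tbx6 at day 30).

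In the condensin, cohesin and separase list 6 of 17 were lower and 1 was higher. Of the 6, Cdca5 was at background on all arrays, and Ncapg and Ncaph, above it on 1 array, had no fall left with readings raised to background. The cohesin genes Rad21 and Smc1a, above background on all arrays, fell by 0.95 (adjusted p of 0.0421 by limma) and 0.93 (0.0456). Pttg1, which encodes securin, the inhibitor that holds separase back until anaphase, went the other way from the members: it read 8.27 on the PBS and 8.17 on the Tbx6 array of day 7, and 11.42 and 11.27 at day 30. Its rise of 3.13 (SE 0.25, adjusted p of 0.000215) was present in either injection. The condensin subunit gene Smc4 fell by 1.22 (adjusted p of 0.0161), lost without PBS at day 7 (0.107), PBS at day 30 (0.0565) or Tbx6 at day 30 (0.151). Ncapd2 had a deposited difference of -1.02 that did not pass (adjusted p of 0.0684).

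In the kinetochore and checkpoint list 7 of 20 were lower and 0 higher, and 11 were at background throughout, 5 of the 7 among them. Mad2l1, the checkpoint protein that captures Cdc20, fell by 1.35 (adjusted p of 0.0109, and 0.0769 without the Tbx6 array of day 30). Pmf1, a kinetochore protein, fell by 1.05 (adjusted p of 0.0289), which was lost without any 1 array (0.0675 to 0.154). Ska2 did not pass (-0.50, adjusted p of 0.447). Of 17 genes of centromere chromatin 5 were lower and 0 higher, and 10 were at background throughout. Of the 5, Cenpn, Cenpt and Oip5 were among those 10, Cenpi had no fall left with readings raised to background, and Cenpm alone had a least difference below 0. With readings raised to background Cenpm differed by 0.006 in the pair of PBS arrays and by -1.35 in the pair of Tbx6 arrays, so its fall was measured after Tbx6 alone. Cenpm fell by at least 0.67 (adjusted p of 0.0137), lost without Tbx6 at day 7, PBS at day 30 or Tbx6 at day 30 (0.128 to 0.179). Hjurp, the chaperone that loads Cenpa, read 8.35 and 8.58 at day 7 and 7.73 and 8.09 at day 30, and did not pass (-0.56, adjusted p of 0.209), as Cenpp did not (-1.13, adjusted p of 0.0744).

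Regulators of mitotic entry held both directions. Pbk, a mitotic kinase, fell by at least 1.33 (adjusted p of 0.000405), and Bora, which helps Aurora A activate Plk1, fell by at least 1.20 (adjusted p of 0.0130, lost without Tbx6 at day 7, 0.0624, or Tbx6 at day 30, 0.0924). Wee1, the kinase that holds Cdk1 inactive, rose by 0.99 (adjusted p of 0.0376), a call lost without any 1 array (0.0812 to 0.139). In that list 3 of 13 were lower and 1 higher. Among the DREAM, MuvB and E2F regulators 6 of 19 were lower, with E2f1 and E2f2 at background throughout, and 2 higher. Rbbp4, above background on all arrays, fell by 1.29 (adjusted p of 0.0126 by limma). E2f8, an E2F repressor made in cycling cells, fell by at least 0.58 (adjusted p of 0.00143), E2f7 did not pass (adjusted p of 0.0568), and Tfdp2, a dimer partner of E2F, rose from 10.39 and 10.30 to 11.91 and 12.29 (difference 1.76, SE 0.26, adjusted p of 0.00369). The other one that rose was E2f6, a repressor of the family.

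Markers of the tissue were read beside these results. All 9 cardiomyocyte markers were above background on every array, as were the 5 endothelial, 5 fibroblast and 5 mural markers measured. The summed signal of the endothelial markers, as a log2 value, was 16.6 and 16.5 at day 7 and 15.6 and 15.7 at day 30, and all 5 were lower at day 30. The fibroblast markers were lower as well, with a median of 14.0 and 13.8 at day 7 and 10.3 and 11.0 at day 30. Col1a1 read 14.01 and 13.79 and then 10.12 and 10.54, and Postn 15.55 and 14.95 and then 10.34 and 11.03, while Dcn, which carries most of the summed signal (18.7 and 18.7, then 18.4 and 18.4), hardly differed. Of the 7 thymocyte and lymphocyte markers 6 were at background on each array, Rag2, Ptcra and Dntt among them, and Cd4 alone was above it (6.29 to 6.54), with a summed signal of 7.14 to 7.24. Of 5 erythroid markers, Alas2 and Slc4a1 were above background on every array and 3 at background, and the summed signal was 12.6 and 11.0 at day 7 and 9.71 and 10.0 at day 30. Of the 4 macrophage markers, Csf1r, C1qa and Lyz2 were higher at day 30. Adgre1 read 7.15 and 6.85 at day 7 and 7.01 and 7.58 at day 30, so its days overlapped. The summed signal, most of it from Lyz2, was 10.8 and 10.2 at day 7 and 12.6 and 13.0 at day 30. The part of these cell types in the fall with day was not tested.

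Single arrays stood apart in markers of other tissues. Of the 5 lung markers, Scgb1a1 and Scgb3a1 were above background for PBS at day 7 alone. Cyp2f2 was above it there, at 8.17, and for Tbx6 at day 30, at 6.31. Sftpc and Sftpb were at background on every array. On the PBS array of day 7, Alas2 read 12.52 against 10.73, 9.24 and 9.82 on the others. Ucp1 of brown fat read 11.92 on it against 7.60 on the Tbx6 array of that day and 5.69 and 8.34 at day 30. The Tbx6 array of day 30 was highest in the fat genes Adipoq, at 9.83 against 7.98, 6.08 and 7.49, and Cidec, at 7.88 against 7.10, 6.13 and 5.85. It was not highest in the other fat markers. Fabp4, like Ucp1, was highest for PBS at day 7, at 17.10 against 16.70 for Tbx6 at day 30, and Plin1 was at background on every array. The part of these differences in the results was not tested. The 5 skeletal muscle markers were at background on every array. Without the PBS array of day 7, or without the Tbx6 array of day 30, fewer of the 41 members were past the day test, all lower. A difference between injections cannot be had without either array of its day.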

How the data were processed

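RNA of 4 heart samples, 1 per group, had been hybridised to Clariom S arrays. The deposited values are taken as log2 expression values, made by the authors with SST-RMA in Affymetrix Expression Console 1.4, per the labels; the log base is inferred from their range, which ends at 19.9. No further normalisation was applied. Names came from the platform annotation (19572 of 28846 probe sets); for 55 genes with several probe sets the one with the highest mean was kept. The test was limma 3.58.1 (lmFit, eBayes, two-sided) in R 4.3.3, with day and injection as terms, no filter, and Benjamini-Hochberg adjustment over 19505 genes; it was tested on simulated data. An unfiltered fit was used because a filter keeps members only through day 7. Python 3.11.15, pandas 2.3.3 and matplotlib 3.10.9 made tables and plots. Members and lists were chosen with earlier results of these data known. All members are described, with values per array where both readings of day 7 were above background, and of each other list the up to 3 genes with the largest day difference among those above background on both arrays of a day. Some further genes are named where the calls of a list are accounted for, without fits that leave out an array. A difference with a reading at background is given as a bound, with that reading raised to the highest background probe set. A fall with a reading of day 7 raised is not a least one. There is no read depth here, and 1 array per group is what limits precision. Alternatives were quantile normalisation, raised readings, a filter, day alone, a variance trend, the mean of probe sets, a 95th percentile background, a fold of 2 and leaving out each array.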

Additional observations from a re-analysis of the deposited data

Results flagged for a closer look

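Among the 4 members above background on all arrays, Cenpe and Kif23 had differences between injections of opposite direction on the 2 days. Cenpe was higher after Tbx6 by 0.61 at day 7 and differed by -0.43 at day 30. Kif23 differed by -0.45 at day 7 and was higher by 0.56 at day 30. With 1 array per group the difference between days was not tested.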

How the results depend on the processing

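The count of 35 members lower at day 30 was 35 or 36 after quantile normalisation, with day alone in the model, with a variance trend and with the mean of probe sets. It was 16 with readings raised to background, where the 16 members at background on all arrays hold no reading. Genes at background on every array then share the same 4 values and so the same variance, so that those p-values rest on a distorted prior. It was 18 of 18 after a filter on mean value, which keeps members through day 7. Leaving out each array, with day alone in the model and the lone array of a day assumed to vary like the others, gave fewer members than the main fit. Except for raised readings, the share of all genes past the test under these alternatives is not given here. The members can therefore not be set beside genes in general under them. Of the 35, 20 kept their call without each array. Raised readings turned the sign for Aurka (0.016), Cks1b (0.071) and Ncapd2 (0.068), and, among genes called lower in the other lists, for Cenpi (0.035), Ncapg (0.080), Ncaph (0.135), Diaph3 (0.118) and Iqgap3 (0.000425), with readings so close to background that the difference between the arrays' background values sets it. The injection test had 0 members under every alternative fitted. At a fold of 2 the day 7 counts between injections were 1 higher and 3 lower, and the day 30 counts 4 and 3; with raised readings both day 30 counts were 0. With the 95th percentile as background the same counts of members, 20 and 4, were above it on both arrays of day 7 and day 30, and 15 instead of 16 on none. The counts between injections among the 20 members above background on both arrays of day 7 were chosen after seeing the data. No paired analysis was possible because each group holds 1 array and the labels carry no replicate numbers.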
